A study of Homo sapiens with 9 samples.

Results

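The D-type cyclins CCND1, CCND2 and CCND3, their kinases CDK4 and CDK6, and the CDK inhibitors CDKN1A, CDKN1B, CDKN1C, CDKN2A and CDKN2B were taken by gene symbol from a table of read counts for 58676 genes. All 10 genes were listed, and 9 of them passed the filter on low counts together with 15975 genes in all. CDKN2A did not pass. RNA came from OVCA433, an established human cell line of ovarian serous adenocarcinoma. The 9 libraries comprised 3 of cells with a control vector, which the labels give as wild type, 3 of cells with shRNA#1 against MPZL3 and 3 of cells with shRNA#3, called hairpin 1 and hairpin 3 here and both labelled as knock-down. Cells of all groups were transduced with virus, and the methods give puromycin for the selection of this line. The methods of the sequencing call the control an empty vector, while a scrambled shRNA is named elsewhere in the study, and the labels do not settle which it was. Each group held 3 biological replicates per the study's methods, lettered A, B and C, and whether each came from its own transduction is not stated, so p-values measure the spread between these cultures of transduced cells.

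D-type cyclins are the growth-factor-responsive cyclins of the G1 phase. They bind CDK4 or CDK6, and the active kinase phosphorylates the retinoblastoma protein RB1, which releases E2F factors that switch on genes for S phase. INK4 inhibitors such as CDKN2A (p16) and CDKN2B (p15) bind CDK4 and CDK6 directly, while CIP/KIP inhibitors CDKN1A (p21), CDKN1B (p27) and CDKN1C (p57) bind cyclin-CDK complexes and restrain CDK2 in particular. The comparison of knockdown with control asks which of these transcripts differ in level when MPZL3, a predicted cell adhesion molecule, is reduced.

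Promoter sequences are shown for 3 of the genes that differed from control with both hairpins pooled. The control regions of a pair of inhibitors that were lower and of a kinase that was higher can so be read beside their levels. RefSeq promoters on GRCh38.p14 run from 250 bases before to 50 bases after the start of transcription and were found for 7 of the 10 genes. They were searched on both strands for the GC box, a core site of SP1, with the letters GGGCGG. Its other strand reads CCGCCC. They were also searched for the E-box of MYC with MAX, with the letters CACGTG on either strand. The motifs can share a letter at their ends, and overlapping copies were each counted. CDKN1A (chr6:36678464-36678763, plus strand) and CDKN2B (chr9:22009256-22009555, minus strand) are printed with the GC box in capitals, and CDK4 (chr12:57752261-57752560, minus strand) with the E-box in capitals, all 5′ to 3′ along the gene.
CDKN1A: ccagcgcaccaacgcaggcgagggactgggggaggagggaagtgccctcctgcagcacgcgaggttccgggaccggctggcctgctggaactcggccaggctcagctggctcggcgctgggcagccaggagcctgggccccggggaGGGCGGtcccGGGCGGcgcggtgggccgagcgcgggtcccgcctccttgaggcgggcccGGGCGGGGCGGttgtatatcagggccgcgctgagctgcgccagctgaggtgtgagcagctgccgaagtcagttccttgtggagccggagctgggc
CDKN2B: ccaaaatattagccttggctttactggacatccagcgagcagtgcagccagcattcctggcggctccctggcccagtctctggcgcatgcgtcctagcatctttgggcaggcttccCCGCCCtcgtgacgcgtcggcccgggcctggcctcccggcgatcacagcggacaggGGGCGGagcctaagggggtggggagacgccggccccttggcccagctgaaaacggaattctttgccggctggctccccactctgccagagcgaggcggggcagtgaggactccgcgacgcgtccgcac
CDK4: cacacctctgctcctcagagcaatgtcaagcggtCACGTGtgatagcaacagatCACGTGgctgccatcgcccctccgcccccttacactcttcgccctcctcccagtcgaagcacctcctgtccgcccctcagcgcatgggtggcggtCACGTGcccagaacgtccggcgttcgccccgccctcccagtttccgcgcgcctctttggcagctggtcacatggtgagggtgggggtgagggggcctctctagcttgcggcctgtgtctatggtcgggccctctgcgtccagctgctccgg
The CDKN1A promoter held 4 copies of the GC box, and 9.06% of 35116 promoters of this length held at least 4. The CDKN2B promoter held 2 copies, and 26.7% of promoters held at least 2. CDK4 held 3 copies of the E-box, and 0.094% of promoters held at least 3. The CDK4 promoter also held 3 GC boxes. Of the promoters not printed, those of CCND3 held 5, 4 and 0 GC boxes, although CCND3 was not called, those of CDK6 held 3 and 0, that of CDKN1B held 1, and those of CDKN2A held 2 and 0. The E-box was found once more, in a promoter of CDK6. The motif in capitals was chosen for each gene, and the shares take no account of how many promoters and motifs were searched. These are matches of letters, and no binding was measured.

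MPZL3 itself stood at 19.5 ± 3.42 CPM in control cells (SD, n = 3), where CPM are read counts scaled by TMM to a common library size, and its mean was 9.66% of control with hairpin 1 and 8.07% with hairpin 3. By library, MPZL3 was at 15.6, 21.9 and 21.03 CPM in control A, B and C, at 1.87, 1.98 and 1.80 CPM with hairpin 1 and at 1.94, 0.988 and 1.795 CPM with hairpin 3, so every knockdown library was below every control library. Library totals ranged from 16850854 to 23890191 counts. Of the epithelial and ovarian serous markers, 7 of 9 tested were lower in knockdown cells and 1 was higher, the lineage factor PAX8 (96.99 CPM in control and 203.6 CPM over the knockdown libraries, edgeR adjusted p = 2.25e-05). The list had a summed level of 11840 to 14750 CPM in control and 5258 to 6814 CPM in knockdown libraries. WT1 had at most 3 counts in every library, as MUC16 had in the knockdown libraries. All 8 tested mesenchymal markers were higher, at 238.5 to 272.3 CPM summed in control and 1373 to 2081 CPM in knockdown libraries, and the fibroblast marker DCN had at most 3 counts throughout. Leukocyte markers summed to at most 1.35 CPM, with CD3E and CD68 at 3 counts or fewer throughout. Endothelial markers summed to at most 0.621 CPM in control and 5.85 CPM in knockdown libraries, and 1 of 2 tested was higher. Of the mesothelial markers, 1 of 3 tested was higher and 1 lower. These shifts moved with every comparison against control below, and their part in the values of the cyclins and inhibitors was not tested.

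Both hairpins together, compared with control in edgeR's quasi-likelihood test, gave 6 of the 9 tested genes an adjusted p under 0.05, 3 lower and 3 higher. The same rule called 33.0% of all 15975 genes, 15.9% higher and 17.0% lower, so a call alone does not set these genes apart. CCND1, CDKN1A and CDKN2B were lower, and CDK4, CDK6 and CDKN1C were higher. CCND2, CCND3 and CDKN1B did not pass. A stricter rule that also asked for a 2-fold difference called 2 of the 9, CCND1 lower and CDKN1C higher, and 14.7% of all genes (7.26% higher and 7.40% lower). Levels of all 6 knockdown libraries lay outside the control range for 4 of the 9, CCND1 and CDKN1A below and CDK6 and CDKN1C above, where 33.1% of all genes had groups that did not overlap, 15.5% above and 17.6% below control. The RNA was bulk, so fewer cells that hold a transcript and less of it per cell cannot be told apart.

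**Figure D1:**
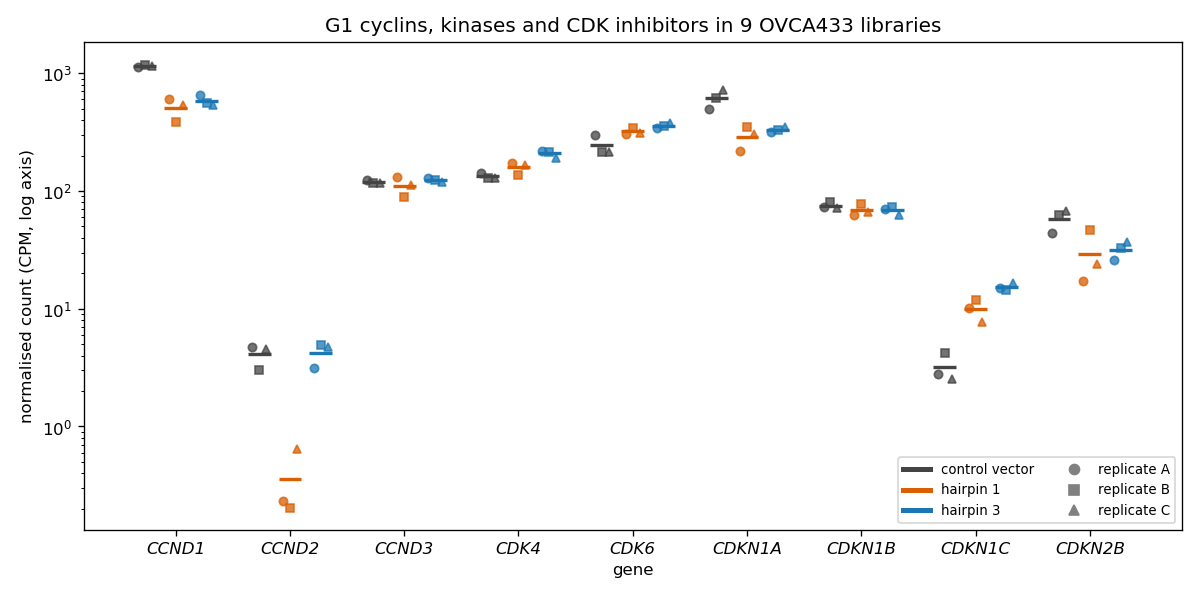
Normalised counts (CPM, log axis) of the 9 genes that passed the filter on low counts, with 1 point per library, coloured by group, and a bar at each group's mean of 3 libraries. CCND1 and CDKN1A lie below control in every knockdown library, CDKN1C lies above it, and CCND2 is low with hairpin 1 while its hairpin 3 libraries, at 3.12 to 4.88 CPM, overlap the control libraries.

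Among the D-type cyclins, CCND1 (cyclin D1; chromosome 11, 69641087 to 69654474 on GRCh38, plus strand) was the most abundant in every library. Its level was 1128, 1184 and 1157 CPM in control A, B and C, then 600.3, 382.7 and 540 CPM with hairpin 1 and 653.9, 558.7 and 537.4 CPM with hairpin 3. Every knockdown library was below every control library, and the lowest was hairpin 1 B. The pooled difference was -1.08 ± 0.13 on the log2 scale (SE, 6 against 3 libraries, edgeR adjusted p = 6.46e-05). With hairpin 1 it was -1.19 ± 0.15 (edgeR adjusted p = 2.84e-05) and with hairpin 3 it was -0.99 ± 0.15 (edgeR adjusted p = 0.000153), and both use the same 3 control libraries. The hairpins did not pass the test of their own difference, at 0.20 ± 0.15 (edgeR adjusted p = 0.451), whose 95% interval was -0.12 to 0.52.

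CCND2 (cyclin D2; chromosome 12, 4273772 to 4305350, plus strand) was a low transcript here and the one member with a large difference between hairpins. Control libraries held 97, 61 and 95 counts, or 4.70, 3.04 and 4.54 CPM. Hairpin 1 libraries held 5, 4 and 15 counts, or 0.234, 0.203 and 0.643 CPM, and hairpin 3 libraries held 53, 89 and 102 counts, or 3.12, 4.88 and 4.70 CPM. All hairpin 1 libraries lay below the rest, and hairpin 3 overlapped control. The mean with hairpin 1 was 8.80% of control (log2 -3.45 ± 0.38, edgeR adjusted p = 9.61e-06), whereas hairpin 3 differed by 0.05 ± 0.29 (edgeR adjusted p = 0.913) with a 95% interval of -0.57 to 0.67. Hairpin 3 was 3.50 ± 0.38 above hairpin 1 (edgeR adjusted p = 7.24e-05). The pooled value of -0.84 ± 0.77 (edgeR adjusted p = 0.442) set 1 mean over these unequal hairpins against control. A model with 3 groups, which instead averages the log2 effects of both hairpins, gave -1.70 (edgeR adjusted p = 0.000272). That average holds the fall with hairpin 1 and no called difference with hairpin 3.

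CCND3 (cyclin D3; chromosome 6, 41934933 to 42050357, minus strand) changed little. Control libraries stood at 124.5, 115.8 and 116.3 CPM, hairpin 1 libraries at 130.4, 89.5 and 112.7 CPM, and hairpin 3 libraries at 129.1, 125.1 and 119.9 CPM. All groups overlapped, and hairpin 1 B was the lowest library. The pooled difference was -0.01 ± 0.11 (edgeR adjusted p = 0.945), with a 95% interval of -0.26 to 0.24.

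Levels between genes were compared as CPM per kilobase of gene model. On that scale the D-type cyclins summed to 260.4 ± 4.99 in control, 124.3 ± 26.8 with hairpin 1 and 142.9 ± 13.4 with hairpin 3 (SD, n = 3). CCND1 made up 91.9% ± 0.51 of the sum in control and 84.5% ± 0.74 and 84.5% ± 1.01 with hairpins 1 and 3. The share of CCND3 was 7.87% in control and 15.5% and 15.1% with the hairpins, and the range in control (7.52% to 8.40%) did not meet that in knockdown cells (14.1% to 16.3%). CCND2 was under 0.5% of the sum in every library. The larger share of CCND3 came with a level of CCND3 that did not pass the test in any comparison.

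The kinases CDK4 and CDK6, partners of the D-type cyclins, were higher. CDK4 (chromosome 12, 57747727 to 57756013, minus strand) stood at 143.2, 127.8 and 129 CPM in control, 171.7, 137 and 166.4 CPM with hairpin 1 and 219.1, 214.7 and 191.5 CPM with hairpin 3. Hairpin 3 libraries were above all others, and hairpin 1 B lay within the control range. CDK4 rose with hairpin 3 by 0.64 ± 0.11 on the log2 scale (edgeR adjusted p = 0.000367), and with hairpin 1 the difference of 0.25 ± 0.11 did not pass (edgeR adjusted p = 0.085), although without hairpin 1 B it was 0.338 and passed (edgeR adjusted p = 0.0243). The test between hairpins gave 0.40 ± 0.11 (edgeR adjusted p = 0.0288), and the pooled rise was 0.46 ± 0.14 (edgeR adjusted p = 0.0248). Without control B or control C the pooled edgeR adjusted p was 0.103 or 0.0923. The difference between hairpins also lost its call without hairpin 1 B (adjusted p = 0.0994), hairpin 1 C (0.0537), hairpin 3 A (0.0745) or hairpin 3 B (0.115) in edgeR. CDK4 overlaps TSPAN31 (133 to 326 counts per library) and MARCH9 (677 to 1180 counts) on the other strand, and the libraries carry no strand, so reads of the overlap cannot be told apart.

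CDK6 (chromosome 7, 92604921 to 92836594, minus strand) stood at 299.9, 216.3 and 215.8 CPM in control, 302.7, 344.4 and 312.5 CPM with hairpin 1 and 345.5, 355.7 and 376.8 CPM with hairpin 3. Every knockdown library was above every control library, with control A close under the hairpin 1 libraries. The pooled rise was 0.48 ± 0.12 (edgeR adjusted p = 0.0103), with 0.39 ± 0.13 for hairpin 1 (edgeR adjusted p = 0.0269) and 0.56 ± 0.13 for hairpin 3 (edgeR adjusted p = 0.00372). Without control B or control C, the edgeR adjusted p was 0.0775 or 0.0647 for the pooled contrast and 0.14 or 0.119 for hairpin 1. The hairpin 1 call was also lost without hairpin 1 B (edgeR adjusted p = 0.101) or hairpin 1 C (0.0557), while the value was 0.614 with the libraries lettered A left out together, chosen after seeing the data. Per kilobase, CDK4 and CDK6 together came to 61.98 ± 6.65, 76.1 ± 4.13 and 95.1 ± 3.40 CPM in control, hairpin 1 and hairpin 3 cells (SD, n = 3), and CDK4 held 68.1% ± 2.78, 65.5% ± 4.32 and 69.1% ± 2.50 of that sum.

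The CIP/KIP inhibitors moved in different directions. CDKN1A (p21; chromosome 6, 36676460 to 36687339, plus strand) stood at 493.8, 619.5 and 722 CPM in control, 218.5, 347.8 and 302.7 CPM with hairpin 1 and 314.6, 328 and 349.6 CPM with hairpin 3. Every knockdown library was below every control library, and hairpin 1 A was the lowest. CDKN1A fell by 0.98 on the log2 scale in the pooled contrast (SE 0.15, edgeR adjusted p = 0.000336). The difference was -1.08 ± 0.17 with hairpin 1 (edgeR adjusted p = 0.000181) and -0.89 ± 0.17 with hairpin 3 (edgeR adjusted p = 0.000912). Its promoter is the first of those printed above.

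CDKN1B (p27; chromosome 12, 12715058 to 12722371, plus strand) did not pass in any comparison. Control libraries stood at 72.9, 79.8 and 71.8 CPM, hairpin 1 libraries at 62.5, 76.9 and 65.8 CPM, and hairpin 3 libraries at 70.1, 72.9 and 62.8 CPM. The groups overlapped, and the pooled difference of -0.13 ± 0.09 (edgeR adjusted p = 0.315) had a 95% interval of -0.33 to 0.07. CDKN1B is controlled to a large extent by protein turnover, which counts of RNA do not show.

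CDKN1C (p57, an imprinted inhibitor linked to differentiation; chromosome 11, 2883213 to 2885881, minus strand) had the largest rise among these genes. Control libraries held 58, 84 and 53 counts, or 2.81, 4.18 and 2.53 CPM. Hairpin 1 libraries stood at 10.05, 11.85 and 7.72 CPM and hairpin 3 libraries at 15.01, 14.3 and 16.6 CPM, so that the 3 groups did not overlap. The mean was 3.11-fold control with hairpin 1 (log2 1.63 ± 0.21, edgeR adjusted p = 3.79e-05) and 4.82-fold with hairpin 3 (log2 2.27 ± 0.21, edgeR adjusted p = 1.92e-06). The pooled log2 difference was 1.98 ± 0.27 (edgeR adjusted p = 0.000132). Hairpin 3 was 0.64 ± 0.19 above hairpin 1 (edgeR adjusted p = 0.0466), and this call was lost without hairpin 1 A (adjusted p = 0.0728), hairpin 1 C (0.163), hairpin 3 A (0.0753), hairpin 3 B (0.103) or hairpin 3 C (0.14) in edgeR.

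Of the INK4 inhibitors, CDKN2B (p15, induced by TGF-beta in epithelial cells; chromosome 9, 22002903 to 22009363, minus strand) was lower in knockdown cells. It stood at 43.9, 62.6 and 67.1 CPM in control, 17.1, 46.5 and 24.1 CPM with hairpin 1 and 26.1, 32.6 and 36.7 CPM with hairpin 3. Hairpin 1 B lay above control A, and the other 5 knockdown libraries lay below every control library. CDKN2B fell by 0.92 on the log2 scale in the pooled contrast (SE 0.25, edgeR adjusted p = 0.0141), with -0.99 ± 0.28 for hairpin 1 (edgeR adjusted p = 0.0142) and -0.86 ± 0.28 for hairpin 3 (edgeR adjusted p = 0.0306). The pooled call was lost without control B (edgeR adjusted p = 0.061) or control C (0.0701). The hairpin 1 call was lost without control C (0.0538) or hairpin 1 C (0.0578), and its value was -1.493 without hairpin 1 B and -0.719 without hairpin 1 A. The hairpin 3 call was lost in DESeq2 (adjusted p = 0.0803) and, in edgeR, without control B (0.0889), control C (0.102), hairpin 3 A (0.0882) or hairpin 3 B (0.0751). It overlaps the antisense transcript CDKN2B-AS1, which held 19 to 34 counts per library, against 366 to 1405 counts for CDKN2B.

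CDKN2A (p16 and p14ARF; chromosome 9, 21967753 to 21995301, minus strand) had 2 counts in control C and 0 in the other 8 libraries. A count of 0 allows up to 3 counts, which is 0.129 to 0.177 CPM at these library sizes and covers counting error only, so no difference between groups was detectable. Its neighbours on chromosome 9 were present in the RNA. MTAP, the methylthioadenosine phosphorylase gene next to CDKN2A, stood at 87.3 ± 3.31 CPM in control cells (SD, n = 3). It was at 59.8 ± 2.15 CPM in hairpin 1 cells and 92.6 ± 7.23 CPM in hairpin 3 cells. MTAP was lower with hairpin 1 (log2 -0.55 ± 0.09, edgeR adjusted p = 0.00035) and 0.63 ± 0.09 higher with hairpin 3 than with hairpin 1 (edgeR adjusted p = 0.000588).

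Per kilobase, the order in control cells was CCND1 (239.4 CPM), CDKN1A (200.6), CDK4 (42.1), CDKN1B (26.6), CCND3 (20.5), CDK6 (19.9), CDKN2B (14.3), CDKN1C (1.23), CCND2 (0.572) and CDKN2A (0.00736). CCND1 and CDKN1A overlapped between libraries, as did CCND3 and CDK6, and the other neighbours in this order did not. The mean of CDK6 was above that of CDKN1B with both hairpins, without overlap for hairpin 3 (29.3 and 24.4) and with overlap for hairpin 1 (26.1 and 24.3). CDKN1A, CDKN1B, CDKN1C and CDKN2B summed to 242.7 ± 40.3 CPM per kilobase in control, 130.3 ± 27.8 with hairpin 1 and 146.6 ± 6.07 with hairpin 3 (SD, n = 3). The INK4 inhibitors CDKN2C and CDKN2D, described below, also passed the filter and are not in this sum. CDKN1A held 82.5% ± 1.89, 72.7% ± 2.60 and 73.9% ± 1.11 of that sum, and CDKN1C held 0.515% in control and 3.00% and 4.03% with the hairpins.

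**Figure D2:**
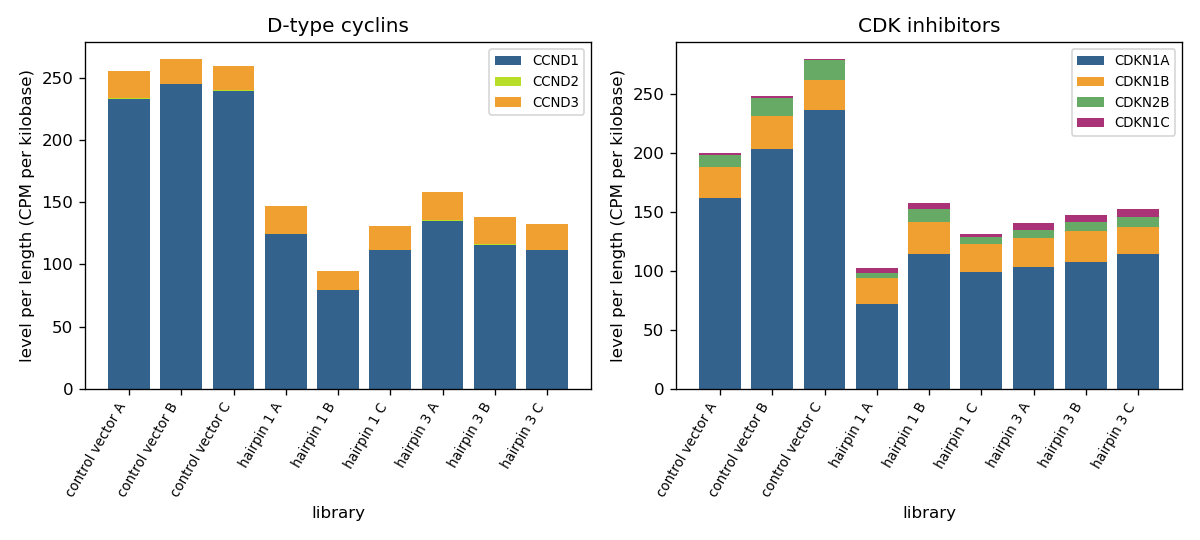
Stacked bars of the levels per length (CPM per kilobase of gene model), with 1 bar per library. The D-type cyclins are on the left and the inhibitors CDKN1A, CDKN1B, CDKN1C and CDKN2B on the right. CCND1 and CDKN1A make up most of each bar, and both sums are lower in all 6 knockdown libraries than in any control library.

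Against control, hairpin 1 had 6 of 9 genes called, 2 higher (CDK6 and CDKN1C) and 4 lower (CCND1, CCND2, CDKN1A and CDKN2B), where 37.8% of all genes were called, 18.0% higher and 19.7% lower. Hairpin 3 had 6 of 9 called, 3 higher (CDK4, CDK6 and CDKN1C) and 3 lower (CCND1, CDKN1A and CDKN2B), where 34.7% of all genes were called, 16.6% higher and 18.1% lower. Between the hairpins 3 of 9 were called, CCND2, CDK4 and CDKN1C, all higher with hairpin 3, where 11.6% of all genes were called, 6.33% higher and 5.30% lower. With the 2-fold difference added, hairpin 1 had 4 of 9 called, CDKN1C higher and CCND1, CCND2 and CDKN1A lower, beside 16.3% of all genes (7.76% higher and 8.55% lower). Hairpin 3 then had 1 of 9 called, CDKN1C, beside 15.3% (7.46% higher and 7.83% lower), and the hairpins differed in 1 of 9, CCND2, beside 3.93% (2.22% higher and 1.72% lower). Groups did not overlap for 5 of 9 genes with hairpin 1, 6 of 9 with hairpin 3 and 4 of 9 between hairpins, where the shares over all genes were 47.3%, 47.9% and 27.7%.

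**Figure D3:**
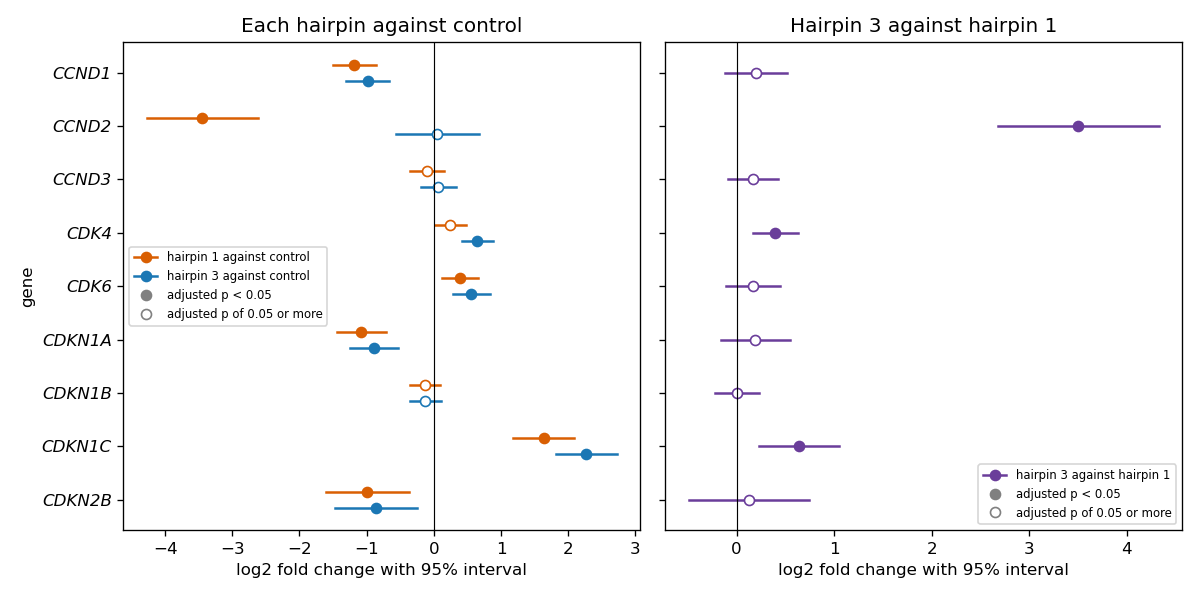
Log2 fold changes with 95% intervals of the 9 tested genes, each hairpin against control on the left and hairpin 3 against hairpin 1 on the right. Filled points have an edgeR adjusted p under 0.05. CCND2 stands apart on the right at 3.50, followed by CDKN1C at 0.64 and CDK4 at 0.40.

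To see whether a gene moved with its region, each gene was set beside up to 25 genes on either side whose mean reached 10 CPM. At CCND1 the 50 neighbours had a pooled median log2 difference of -0.33, and 40 of the 50 were lower, where the median of all genes was 0.0045. CCND1 lay 0.76 below that median. By library, the neighbours' median against the control mean was -0.14 to 0.11 in control libraries and -0.40 to -0.20 in knockdown libraries. At CDK4 the neighbours' median was 0.27 with hairpin 3 and 0.07 with hairpin 1, and at CDKN2B it was 0.22 with hairpin 3, against the fall of CDKN2B. At CDKN1A, CDK6, CDKN1C, CCND3 and CDKN1B the pooled medians lay between -0.07 and 0.07. At CCND2, with 42 neighbours, the median was 0.17 with hairpin 1, where CCND2 lay 3.62 below it. The part of the neighbours' shift in the values of these genes was not tested.

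**Figure D4:**
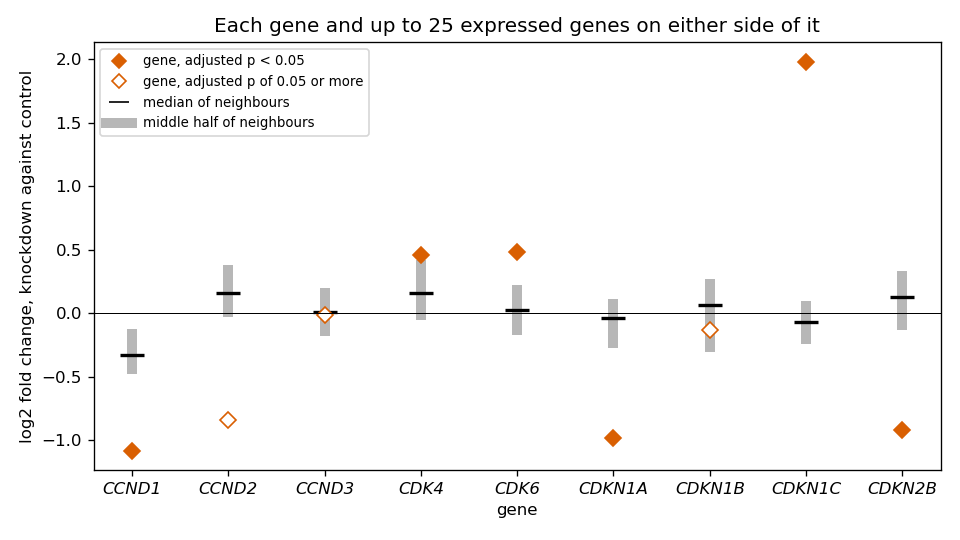
Pooled log2 fold changes of each gene (diamonds) beside the median and interquartile range of up to 25 expressed genes on either side of it. The neighbours of CCND1 centre on -0.33 with CCND1 itself at -1.08, and for CDK4 at 0.46 the neighbours centre on 0.16.

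Single genes near CCND1, chosen after their values were seen, differed widely. MYEOV, which starts at -346.9 kb from the start of CCND1, had means of 232 CPM (control), 69.96 CPM (hairpin 1) and 85.04 CPM (hairpin 3) (pooled log2 -1.58, edgeR adjusted p = 3.84e-05). ORAOV1, which overlaps the end of CCND1 on the other strand, differed by -0.22 (edgeR adjusted p = 0.0884), and FADD, 562.1 kb after CCND1, by 0.14 (edgeR adjusted p = 0.414). SHANK2, 826.8 kb after CCND1, was lower at -0.82 (edgeR adjusted p = 0.000434). CPT1A, at -886.5 kb, was lower at -0.45 (edgeR adjusted p = 0.00575). Genes of the region thus differed unevenly in size, while 40 of the 50 neighbours described above had values below 0.

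For each of the 6 genes called in the pooled comparison the transcripts most like it were found by Pearson correlation of log2 CPM over the 9 libraries among transcripts whose mean reached 10 CPM. The points share group and library, so the values are descriptions. CCND1 was closest to MYEOV (r = 0.996) and ELOVL6 (0.995), and CDKN1A to STAP2 (0.99) and SSH3 (0.989). CDK4 was closest to NOM1 (0.988) and DHX30 (0.978), and CDK6 to UGDH (0.977) and SPRED1 (0.961). CDKN1C was closest to MLLT3 (0.987) and CP (0.985), and CDKN2B to DIO2 (0.964) and SLFN5 (0.961).

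Around these genes, 71 genes in 9 lists were all measured, called pathway genes here. The lists cover the G1 pathway and genes linked to it, with proliferation markers among them, and 1 list is not reported here. In the pooled comparison 9 of the 71 genes were higher, 16 were lower and 46 did not pass. Their median log2 difference was -0.04 beside 0.0045 over all genes. Hairpin 1 had 10 higher and 24 lower, and hairpin 3 had 15 higher and 12 lower. The pooled count of 25 genes became 13 without control B and 16 without control A. Of all genes, 15.9% were called higher and 17.0% lower in the pooled comparison. The shares were 18.0% and 19.7% with hairpin 1 and 16.6% and 18.1% with hairpin 3. Whether the counts in the lists differ from these shares was not tested.

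Of the partners in late G1, CCNE1 (cyclin E1, which activates CDK2) fell by 0.99 on the log2 scale (SE 0.15, edgeR adjusted p = 0.000318), with 32.5 ± 2.91 CPM in control cells and, without overlap, 14.7 ± 3.54 and 17.95 ± 0.65 CPM in hairpin 1 and hairpin 3 cells (SD, n = 3). In the list of cyclin E and CDK2 it was the 1 of 4 genes called in the pooled comparison. With hairpin 1, 2 of the 4 were lower, CCNE1 and CDC25A. CDC25A differed from control by -1.23 ± 0.19 with hairpin 1 (edgeR adjusted p = 0.000226) and by -0.28 ± 0.19 with hairpin 3 (edgeR adjusted p = 0.294). It was 0.95 ± 0.19 higher with hairpin 3 than with hairpin 1 (edgeR adjusted p = 0.0064). CDK2 stood at 83.7, 76.1 and 86.5 CPM in control, hairpin 1 and hairpin 3 cells. Both other INK4 inhibitors were called in opposite directions. CDKN2C (p18) rose by 0.56 ± 0.11 (edgeR adjusted p = 0.00262) from 70.0 ± 3.52 CPM, and CDKN2D (p19) fell by 0.70 (SE 0.21, edgeR adjusted p = 0.0215) from 7.17 ± 1.07 CPM. With hairpin 3 alone CDKN2D did not pass (edgeR adjusted p = 0.0769).

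Of the CDK-activating kinase, which phosphorylates CDK4, CDK6 and CDK2, the kinase CDK7 fell by 0.65 (SE 0.11, edgeR adjusted p = 0.000969) and its cyclin CCNH fell by 0.34 (SE 0.12, edgeR adjusted p = 0.0396), with MNAT1 at -0.01. CCNH did not pass with hairpin 3 alone (edgeR adjusted p = 0.1335). Among pocket proteins, the substrates of the cyclin D kinases, RBL1 fell by 0.355 (SE 0.12, edgeR adjusted p = 0.0429), and it did not pass with hairpin 3 alone (edgeR adjusted p = 0.145). RBL2 did not pass in the pooled comparison (edgeR adjusted p = 0.595) or with hairpin 3 (edgeR adjusted p = 0.34). It was lower with hairpin 1 (log2 -0.78 ± 0.15, edgeR adjusted p = 0.000969). RBL2 was 0.97 ± 0.15 higher with hairpin 3 than with hairpin 1 (edgeR adjusted p = 0.000892). RB1 had 93.3 ± 9.17 CPM in control cells against 116 ± 14.8 CPM (hairpin 1) and 110.6 ± 5.66 CPM (hairpin 3), which did not pass in the pooled comparison (log2 0.28 ± 0.10, edgeR adjusted p = 0.051) and passed with hairpin 1 alone (edgeR adjusted p = 0.0406). Of 10 E2F and DP factors, 3 were higher and 2 lower in the pooled comparison. E2F1 did not pass there (edgeR adjusted p = 0.446) but was lower with hairpin 1 (log2 -0.70 ± 0.17, edgeR adjusted p = 0.00492). With hairpin 3 it differed from control by 0.07 ± 0.17 (edgeR adjusted p = 0.789). E2F1 was 0.77 ± 0.17 higher with hairpin 3 than with hairpin 1 (edgeR adjusted p = 0.0095). E2F8 fell by 0.95 (SE 0.27, edgeR adjusted p = 0.0174) and E2F5 fell by 0.78 (SE 0.14, edgeR adjusted p = 0.00105), while E2F7, a repressor of the family as E2F8 is, rose by 0.52 ± 0.16 (edgeR adjusted p = 0.0259). E2F7 did not pass with hairpin 1 alone (edgeR adjusted p = 0.089).

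In the list for turnover of G1 regulators, 1 of 7 was called in the pooled comparison (SKP2), 2 with hairpin 1 (SKP2 and FBXO4), 1 with hairpin 3 (FBXW7) and 3 between hairpins (the same 3 genes). SKP2, the F-box protein that marks CDKN1B for degradation, rose with hairpin 1 (log2 1.41 ± 0.14, edgeR adjusted p = 3.32e-06), from 111.4 ± 14.6 CPM in control to 295.9 ± 27.1, and stood at 131.9 ± 24.4 with hairpin 3 (0.24 ± 0.14, edgeR adjusted p = 0.198). All 50 of its neighbours on chromosome 5 were above 0 with hairpin 1, with a median of 0.52, while 13 of the 50 were with hairpin 3, with a median of -0.22. RNA of CDKN1B, the target of SKP2, was at 91.4% of control with hairpin 1 and 91.7% with hairpin 3, and neither passed. SKP2 acts on the CDKN1B protein, whose level these counts do not show.

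Of 14 regulators of inhibitor genes, 2 were higher, 4 were lower and 8 did not pass, with a median log2 difference of 0.04. KLF4, a factor that activates CDKN1A in epithelia, fell by 2.92 (SE 0.23, edgeR adjusted p = 1.66e-06), with 26.1 ± 3.92 CPM in control, 2.77 ± 1.00 CPM in hairpin 1 cells and 4.10 ± 0.78 CPM in hairpin 3 cells. FOXO3, which activates CDKN1B and CDKN1A, fell by 0.68 (SE 0.11, edgeR adjusted p = 0.000728). MDM2 stood at 232.7, 194.9 and 280.2 CPM in control, hairpin 1 and hairpin 3 cells, with a pooled difference of 0.03 ± 0.18 (edgeR adjusted p = 0.919). Neither hairpin passed against control, but MDM2 was 0.52 ± 0.13 higher with hairpin 3 than with hairpin 1 (edgeR adjusted p = 0.0206). MYC, a factor that represses CDKN1A and CDKN2B and was named after its values were seen, rose by 0.61 ± 0.17 (edgeR adjusted p = 0.0154), with neighbours at a median of -0.37. The other lower genes were KLF6 at -0.43 (edgeR adjusted p = 0.0104) and EZH2 at -0.45 (edgeR adjusted p = 0.0432). EZH2 did not pass with hairpin 3 (edgeR adjusted p = 0.16). The part of any of these regulators in the levels of the inhibitors was not tested.

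Of 6 proliferation markers, PCNA was the 1 called in the pooled comparison, at -0.43 ± 0.16 (edgeR adjusted p = 0.0497), and it did not pass with hairpin 3 (edgeR adjusted p = 0.181). PCNA and CCNA2 (edgeR adjusted p = 0.0293) were lower with hairpin 1, and CDK1 was higher with hairpin 3 (edgeR adjusted p = 0.049). MKI67 had 463.9 ± 103, 536.2 ± 124 and 483.9 ± 121 CPM in control, hairpin 1 and hairpin 3 cells and differed by 0.14 ± 0.19 (edgeR adjusted p = 0.626).

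**Figure D5:**
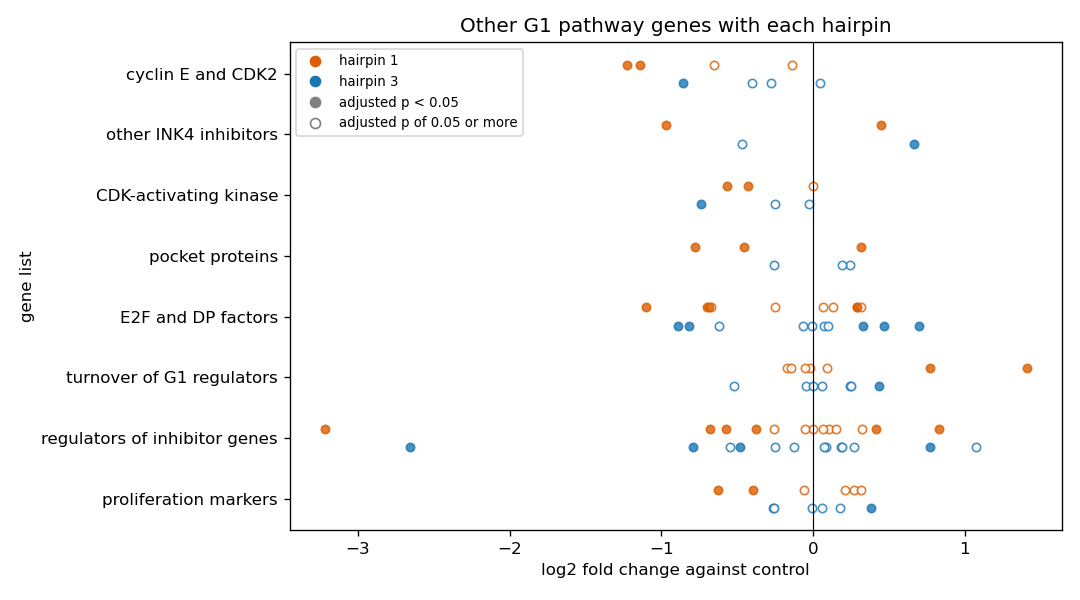
Log2 fold changes against control of 48 pathway genes in 8 lists, 1 of them proliferation markers. Each point is 1 gene and hairpin, filled where the edgeR adjusted p is under 0.05. KLF4 is the lowest point with either hairpin (-3.22 and -2.66), and SKP2 is the highest of those drawn with hairpin 1 (1.41).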

How the data were processed

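Poly(A) RNA of 9 libraries was sequenced without strand information. Per the labels, reads were aligned with HISAT2 2.0.5 to hg38 and counted with featureCounts 1.5.0-p3, and the authors deposited raw read counts per gene with no normalization. Positions are those of the table, and 9 of the 10 genes have the same position in GENCODE 29. Genes were filtered with filterByExpr (minimum count 10, minimum total 15), scaled by TMM and tested under R 4.3.3 by the quasi-likelihood F test of edgeR 4.0.16 (glmQLFit, glmQLFTest). P-values were adjusted by Benjamini-Hochberg over 15975 genes, and a gene was called at an adjusted p under 0.05. Both hairpins against control used a model with 2 arms, and the other comparisons a model with 3 groups. The alternatives were a Wald test (DESeq2 1.42.0), scaling by size factors or by library totals, no filter, a block for the replicate letter, other groupings of libraries, each library left out, and other windows. Fold changes carry a standard error from the F statistic. The fits were tested on simulated data.

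The 10 genes and all lists were chosen with earlier results of these data known. Beside them the text names MPZL3, MTAP, at most 3 genes per list with the largest pooled change among those called in the pooled comparison and of the same sign with each hairpin, RB1, MDM2 and MKI67, and the 2 transcripts most like each gene called there. MYC, KLF6, EZH2, CDK2, CDC25A, MNAT1, RBL2, E2F1, PAX8, CCNA2, CDK1, FBXO4, FBXW7 and the genes near CCND1 were named after their values were seen. One gene and one list are counted in the pathway totals but not reported here. No pair of libraries of a group was close enough to be 1 library deposited more than once.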

Additional observations from a re-analysis of the deposited data

Results flagged for a closer look

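The effect against control differed between hairpins for CCND2 (3.50 on the log2 scale, hairpin 3 minus hairpin 1), CDK4 (0.40) and CDKN1C (0.64) by edgeR's test of the difference itself. The CCND2 difference kept its call in all 16 alternatives, and the other differences lost it in several, as given with the genes. CDKN1A in the knockdown libraries held 1 sample far from the rest: hairpin 1 A, at 218.5 CPM, left a gap of 0.642 of the range of the 6 libraries to the next one. Chance sets apart about 1 such sample in 20 groups, several genes and groups were looked at, and the 6 libraries span both hairpins. Control A was also the lowest control, at 493.8 CPM. Set against the control of the same letter, CDKN1A in hairpin 1 A was at -1.18 on the log2 scale. That lay between hairpin 1 B (-0.83) and hairpin 1 C (-1.25).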

How the results depend on the processing

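Adding the 2-fold difference left 2342, 2605, 2443 and 628 genes called in the pooled, hairpin 1, hairpin 3 and between-hairpin comparisons, with 2, 4, 1 and 1 of the 9 cyclin, kinase and inhibitor genes and 3, 10, 1 and 4 pathway genes. In a model with 3 groups the average of the CCND2 effects of both hairpins was -1.70 and passed, although hairpin 3 alone, at 0.05, did not. Leaving out 1 library at a time, the pooled count of the 9 genes ran from 3 (without control B or C) to 6, and that of pathway genes from 13 to 30. Pooled log2 values then ran from -0.051 to 0.052 for CCND3 (above 0 without control A, 0.022, or hairpin 1 B), 0.399 to 0.529 for CDK4, 0.391 to 0.652 for CDK6 and -1.089 to -0.806 for CDKN2B. The hairpin 1 value of CCND3 ran from -0.235 to 0.028 and the hairpin 3 value of CCND2 from -0.128 to 0.223. Between hairpins, 1 to 3 of the 9 genes and 1046 to 1971 of all genes were called, with CDKN1B at -0.062 to 0.1 and CDKN2B at -0.148 to 0.631. The lowest counts came without hairpin 1 C, hairpin 3 A or hairpin 3 B for the 9 genes and without hairpin 3 B for all genes.

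Same-lettered libraries deviated together with correlations of 0.064 to 0.678 over 9 pairs, 8 of them over 0.1. Pairs of libraries with different letters, from different groups, had correlations of -0.672 to 0.327. As not every same-lettered pair was over 0.1, the main tests did not pair the samples by letter. Whether the letters mark a shared batch is not stated. With the letter as a replicate block, 6, 7, 6 and 3 of the 9 genes were called in the 4 comparisons, CDK4 gaining a call with hairpin 1 (0.247, edgeR adjusted p = 0.0189). Of the 71 pathway genes, 33, 48, 43 and 28 were called. Whether counts of pathway genes differ from the shares over all genes was not tested in any alternative. Of all genes, 7798 were called with hairpin 1 and 7277 with hairpin 3, beside 6032 and 5536 without the block. The pooled comparison had 5773 of all genes called with the block and 5269 without it. Between hairpins 3689 genes differed with the block. CDKN2B then had an edgeR adjusted p of 0.000123 with hairpin 1 and 0.000763 with hairpin 3, lower in both. Without a filter 21 of the 71 pathway genes differed between hairpins. With the libraries lettered A left out together, chosen after seeing the data, 21 did, the pooled CDK4 value was 0.478 (edgeR adjusted p = 0.0695), and CDKN1B and CDKN2B differed between hairpins by -0.071 and -0.016. With only the compared libraries fitted, the CDK4 difference between hairpins had an edgeR adjusted p of 0.0521.

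With 10 neighbours on each side the pooled neighbourhood medians were 0.08 at CCND2 and CCND3, -0.02 at CDK6, 0 at CDKN1A, 0.02 at CDKN1B and 0.2 at CDKN2B. With a minimum of 1 CPM they were 0.24 at CDK4, 0.08 at CDK6, -0.03 at CDKN2A and 0.02 at CDKN2B. Without division by length CCND1 held 90.4%, 81.9% and 81.8% of the D-type cyclins. CCND1, CDKN1A and CDKN1C kept direction and call against control in every alternative that used adjusted p alone. At 4 to 15 counts in hairpin 1 libraries, depth limits the size of the CCND2 difference.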
